A study of Mus musculus with 3 samples.

Results

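Hydroxyurea (HU) was compared with control in RAW 264.7 cells, an established mouse macrophage line, across every gene with appreciable expression. A gene was included where its FPKM, a level scaled to the length of the exons and to the reads counted in the library, was at least 5 in the control library or the HU library. This held for 7927 of the 46078 genes in the deposited table, of which 7390 are protein-coding and 537 are of other biotypes in GENCODE M21. The included genes were ranked by the log2 ratio of HU to control FPKM, with 1 FPKM added to each value, a scale that understates the ratio of low genes.

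Each group was 1 library of 150-base paired-end RNA reads. The control library carries the treatment label control, and no vehicle is given for it. The HU library came from cells given 0.5 mM HU for 12 hours. Another library, from cells given the same HU together with gold nanocages, is shown beside them as values only, because it shares the drug with one and is compared with the same control. All libraries came from 1 line at passages 10 to 15, grown in medium with 10% serum. The line derives from a tumour induced by Abelson murine leukemia virus, so it is a transformed, dividing cell and a limited model of resting macrophages. The study was framed around damage done by HU and its relief by gold particles. The protocol text is the same for all samples, and the nanocage dose is not given in the sources used here. No culture was repeated, so no p-value is given, and every interval below covers counting error only.

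HU inhibits ribonucleotide reductase, the enzyme that makes deoxynucleotides. Forks then slow and stall, and the checkpoint kinases ATR and CHK1 hold the cell in S phase. Persistent damage stabilises p53, a transcription factor whose target genes encode a cyclin-dependent kinase inhibitor, its own ubiquitin ligase MDM2, death ligand receptors and BCL2 relatives. Mitotic genes are switched on late in the cycle by the MYB-MuvB and FOXM1 complexes. The cell cycle homology region (CHR) in their promoters binds the MuvB core, and the CCAAT boxes nearby bind NF-Y. Active p53 leads through p21 to the repressive DREAM complex at the same promoters.

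The control library held 14990564 counted reads, that of HU 20057329 and that of HU with nanocages 18644333, and 7722, 7723 and 7748 genes reached 5 FPKM. All 11 macrophage markers exceeded 1 FPKM, with summed levels of 3648, 3535 and 3389 FPKM in that order. Each of 40 markers of lymphocytes, granulocytes, dendritic cells, fibroblasts, endothelium, erythroid cells and epithelium stayed at or under 0.28 FPKM in every library. Just inside the level limit lay Pik3ca (5.00 FPKM in control, 4.81 in HU) and Wls (5.00 and 4.43). Just outside lay Cntnap1 (4.69 and 4.99) and Mtmr10 (2.92 and 4.99), the last with a log2 ratio of 0.61.

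Most genes differed little, and a small number differed greatly. The median log2 ratio was -0.01, with 5th and 95th percentiles of -0.34 and 0.37, and 88.5% of genes lay within 1.25-fold. On this scale, which is the one meant wherever genes are counted as at least 2-fold apart, 86 genes (1.08%) were at least 2-fold higher in HU, and 46 (0.58%) were at least 2-fold lower. Among protein-coding genes these counts were 78 (1.06%) and 33 (0.447%), and 18 and 2 of them exceeded 4-fold. Of the 78, 40 were below 5 FPKM in control, and of the 33, 11 were below 5 FPKM in HU, so these entered only through the library where they were high. With a mean of at least 5 FPKM required instead, the counts over all genes were 71 on the high side and 40 on the low side. A gene was called above or below counting error where the exact (Clopper-Pearson) 95% interval of the ratio of its library-scaled counts excluded 1. By that measure 1655 genes (20.9%) were above and 1840 (23.2%) below, and among protein-coding genes 1594 (21.6%) and 1770 (24%). The count of any gene group below is to be read beside these shares, since at this depth many small differences pass counting error. Selection acts in each group too, where a gene under 5 FPKM in 1 of the libraries is counted only because of the other.

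**Figure D1:**
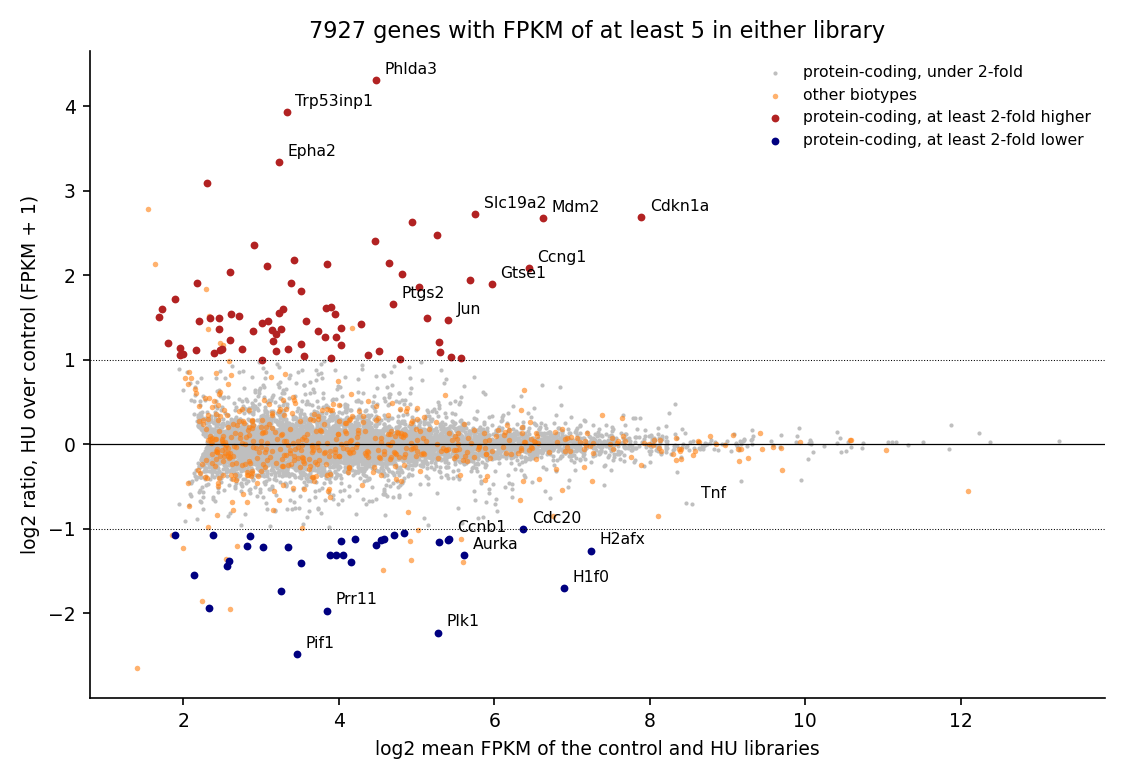
Each point is 1 of the 7927 genes, with the log2 of its mean FPKM in control and HU on the x axis and its log2 ratio of HU over control (FPKM + 1) on the y axis. Dotted lines mark 2-fold, and the 78 higher and 33 lower protein-coding genes stand clear of a narrow band in which 88.5% of all points lie.

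The high end was made of p53 targets to a large extent. Of the 78 protein-coding genes at least 2-fold higher, 32 belong to a list of 94 p53 targets, of which 60 passed the level filter, and none of the 33 lower genes does. Among the 60, 47 were above and 6 below counting error, and the median log2 ratio was 1.03. Some of the 60, such as Phlda3 and Epha2, passed the filter only through the HU library. Such members are high by selection, which lifts this median and those of the roles below. With a mean of at least 5 FPKM required, 29 of 57 listed targets were at least 2-fold higher, and with no filter 33 of 92. The list and its roles were drawn up with earlier results of these data known, so the counts describe it and do not test it.

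Among targets that restrain the cell cycle, all 8 lay above counting error, 6 by 2-fold or more, and their median was 1.88. Cdkn1a, the cyclin-dependent kinase inhibitor p21, stood at 63.0 FPKM in control, 412 in HU and 401 in HU with nanocages. Trp53inp1, a nuclear cofactor of p53, measured 0.36, 19.8 and 20.2 FPKM. Both libraries with HU were thus far above control, and they were close to each other. Btg2, an antiproliferative adaptor of the mRNA deadenylase complex, measured 10.6, 45.9 and 41.9 FPKM, and the polo-like kinase gene Plk2 13.6, 52.0 and 51.0 FPKM. Gtse1, whose product binds microtubules and carries p53 out of the nucleus, measured 26.1, 99.6 and 101 FPKM. It belongs to the mitotic list as well, where it was the lone member at least 2-fold higher.

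Of 7 genes that act back on p53, 5 were above and 2 within counting error, and 3 differed by 2-fold or more. Mdm2 measured 26.1 FPKM in control, 172 in HU and 174 in HU with nanocages. Ccng1, cyclin G1, a partner of the phosphatase PP2A, measured 32.6, 141 and 148 FPKM, a 4.33-fold difference between HU and control (4.12 to 4.56). Pml, the scaffold of PML nuclear bodies, was 2.60-fold higher (2.38 to 2.84), and the phosphatase gene Ppm1d 1.99-fold higher (1.82 to 2.19). The message of p53 itself was level, since Trp53 measured 73.5, 72.8 and 70.0 FPKM and its ratio lay within counting error (1.01-fold lower, 0.970 to 1.05).

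Of 12 targets with roles in signalling or at the cell surface, 8 were at least 2-fold higher and 11 above counting error, with a median of 1.43. Phlda3, which competes with AKT for membrane lipid, lies at chr1:135766119-135769136 (mm10, plus strand) and measured 1.24 FPKM in control, 43.4 in HU and 44.8 in HU with nanocages. Epha2, an ephrin receptor kinase, measured 0.87, 17.97 and 18.9 FPKM, and Fam212b, an inhibitor of the kinase PAK4, 0.25, 9.65 and 9.60 FPKM. These 2 and Trp53inp1 are the 3 protein-coding genes at least 2-fold higher that were under 1 FPKM in control. Fam212b rested on 18 control reads against 925, hence the wide interval of its 38.4-fold difference (24.2 to 65.1). Ddias, named for its suppression of apoptosis after DNA damage, measured 6.39, 38.0 and 43.0 FPKM. Cd80, the costimulatory ligand of CD28 and CTLA-4 on antigen-presenting cells, measured 4.71, 24.0 and 28.3 FPKM, a 5.11-fold difference between HU and control (4.21 to 6.24).

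Most targets that promote cell death were higher, with 7 of 13 at least 2-fold higher, 11 above counting error and a median of 1.01. Bbc3, the BH3-only protein PUMA, measured 10.96 FPKM in control, 65.7 in HU and 65.8 in HU with nanocages. Pidd1, the scaffold that activates caspase-2, measured 6.53, 22.04 and 22.7 FPKM. Both receptors for death ligands were low in every library, Tnfrsf10b at 2.00, 7.22 and 7.70 FPKM and Fas at 3.15, 7.97 and 10.2 FPKM. Bax, the pore-forming effector, was abundant and differed little, at 197, 246 and 229 FPKM.

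In DNA repair, 2 of 4 targets were at least 2-fold higher. Ercc5, the nuclease XPG of nucleotide excision repair, measured 4.29, 14.5 and 15.1 FPKM, and Polk, a translesion polymerase, 8.66, 24.0 and 24.96 FPKM. Polh, the polymerase that bypasses ultraviolet lesions, lay on the other side at 23.1, 16.9 and 16.6 FPKM, 1.37-fold lower in HU. The targets in metabolism and nutrient sensing split most widely: 6 of 16 were at least 2-fold higher, 10 were above and 4 below counting error, and the median was 0.21. Slc19a2, a thiamine transporter, measured 13.5, 94.5 and 95.1 FPKM. Ddit4 and Sesn2, which both restrain mTORC1, measured 7.80, 53.7 and 49.5 FPKM and 20.8, 82.7 and 83.9 FPKM. Lpin1, a phosphatidate phosphatase, measured 1.20, 5.23 and 4.98 FPKM.

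**Figure D2:**
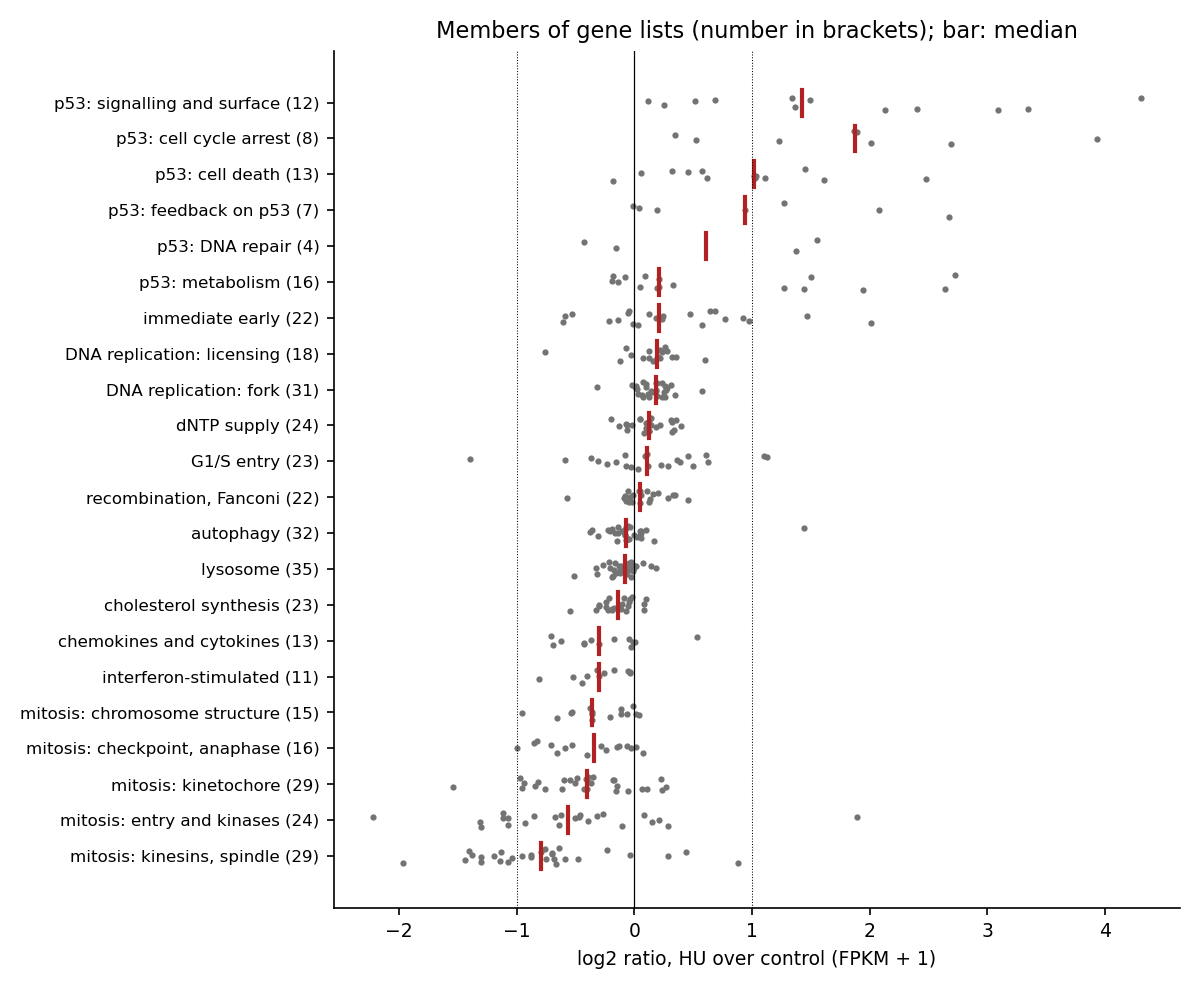
Each grey point is a gene of the list named on the y axis, placed by its log2 ratio of HU over control (FPKM + 1); red bars are medians and dotted lines mark 2-fold. The p53 roles reach from a median of 1.88 for cell cycle arrest to 0.21 for metabolism, and the mitotic roles lie to the left, down to -0.79 for kinesins and spindle.

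Promoter sequence was examined in RefSeq windows (GRCm38.p6, the assembly mm10) from 250 bases before to 50 bases after each annotated start. A match to the p53 site was counted as a pair of decamer elements with 0 or 1 base between them and at most 2 mismatches, none of them at the central C and G of either element. Of all 32851 windows, 0.682% held such a match, as did 0.787% of those of the included protein-coding genes. Of windows of the 100 highest genes 4 of 103 did (3.88%, exact interval 1.07 to 9.65), and of the 100 lowest 1 of 102, at Kif23 (0.98%, 0.0248 to 5.34), so the intervals overlap. The matches in the 4 windows are shown because they lie at some of the highest genes, with both elements in capitals, 5′ to 3′ on the gene's strand.
Cdkn1a, chr17:29090923-29090952, plus strand: ttcagGAACATGTCTTGACATGTTCagccc
Ccng1, chr11:40755457-40755486, minus strand: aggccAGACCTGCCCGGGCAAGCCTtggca
Gtse1, chr15:85859940-85859969, plus strand: accggGAGCAAGTTGGGGCTTGCCTctgac
Gtse1, chr15:85859950-85859979, plus strand: agttgGGGCTTGCCTcTGACTTGCCTaatt
Cd80, chr16:38458817-38458846, plus strand: gctcaGAACAGGCCTGGACAAGTCAcctcc
The Cdkn1a and Ccng1 matches and both of Gtse1, which share an element, have 1 mismatch, found in 0.11% of all windows, and that of Cd80 has 2. Counted from the start, those of Cdkn1a, Ccng1 and Cd80 begin at positions -51, -195 and -111 and those of Gtse1 at -1 and 10. The Cd80 window and the Gtse1 window with the matches belong to starts within those genes. Cd80 spans chr16:38455561-38496335 and Gtse1 chr15:85859745-85876573. A match is a description of letters and not evidence of binding. Sites outside these windows were not analysed here, and a window without a match, as at the other highest genes, says nothing of p53 there.

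Of the 78 higher protein-coding genes, 35 belong to none of the gene lists used here. The highest of these were Cep170b, a centrosomal protein gene, and Enc1, an actin-binding BTB-kelch protein gene. Cep170b measured 1.77 FPKM in control, 13.2 in HU and 12.7 in HU with nanocages, and Enc1 3.24, 18.3 and 18.8 FPKM. Qpctl, the Golgi enzyme that forms pyroglutamate on CD47 and on chemokines, measured 8.58, 41.3 and 39.5 FPKM. It overlaps Fbxo46 on the opposite strand by 471 bases, and Fbxo46 was at 5.84 and 5.31 FPKM. Mybl1, the transcription factor A-MYB, measured 2.54, 14.3 and 15.3 FPKM. The group also holds Nanos1, a translational repressor, Dcxr, a xylulose reductase, Csrnp2, a nuclear factor, Prrg4, a membrane protein, and Traf4, a signalling adaptor, whose log2 ratios ran from 1.60 for Traf4 to 2.03 for Prrg4. With 1 FPKM added to each value, the library with nanocages lay within 1.25-fold of HU for each of the 78.

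**Figure D3:**
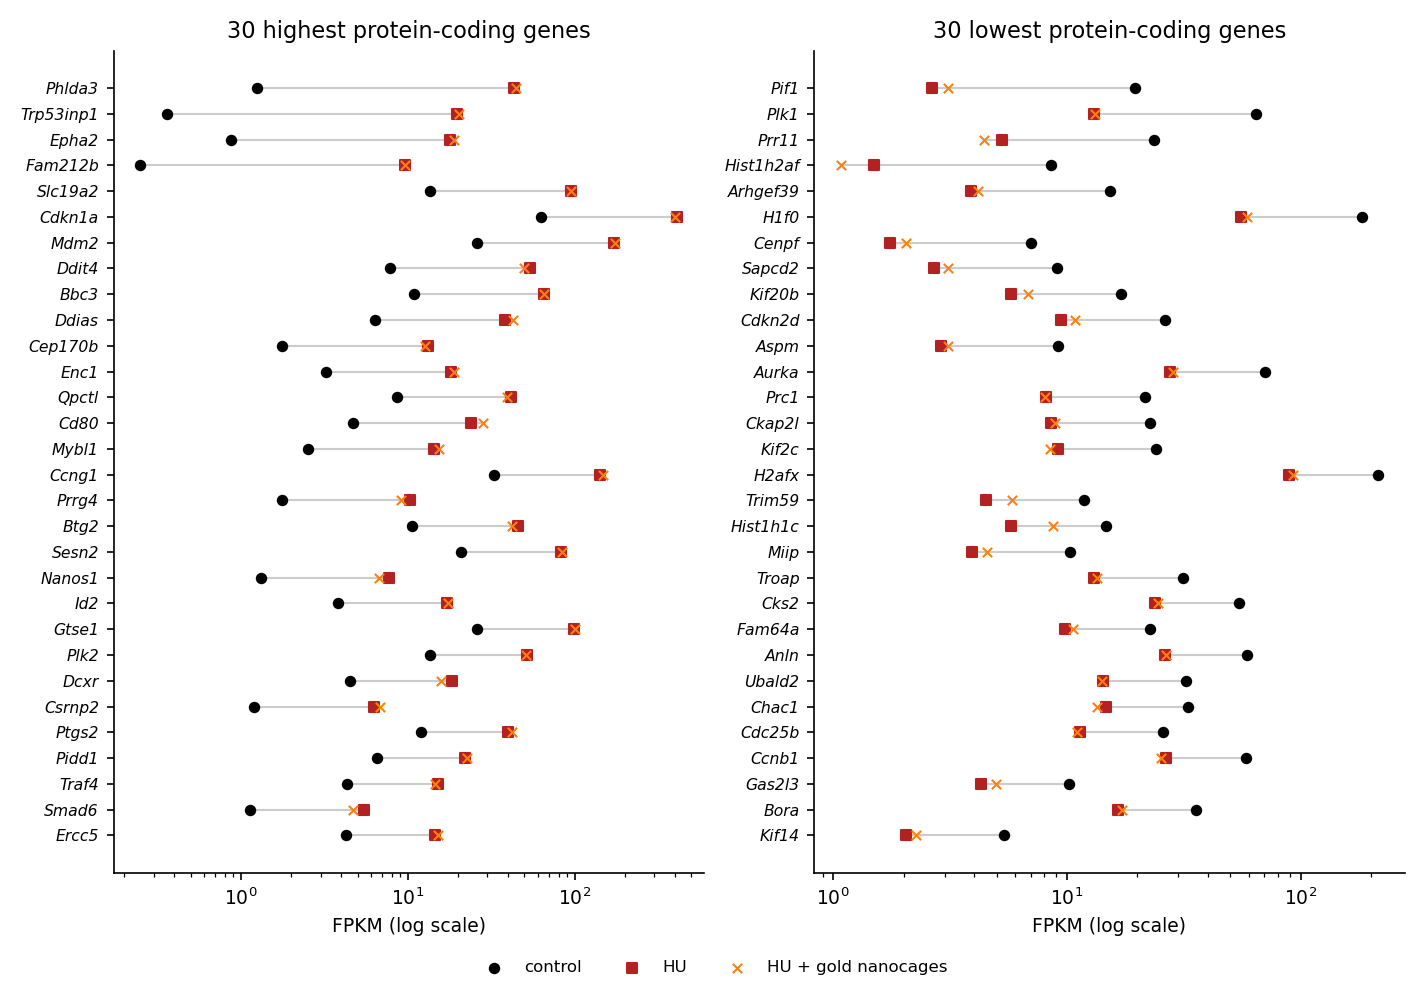
FPKM on a log scale in control (black circles), HU (red squares) and HU with gold nanocages (orange crosses) for the 30 highest and 30 lowest protein-coding genes by the log2 ratio of HU over control, 1 library per symbol. In each row both libraries with HU lie on the same side of control, from Phlda3 at 1.24 and 43.4 FPKM to Pif1 at 19.5 and 2.66 FPKM, and the markers of both often coincide.

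The low end was made of mitotic genes to a large extent. Of 119 mitotic genes listed, 112 passed the level filter, 20 were at least 2-fold lower, 86 were below and 8 above counting error, and the median log2 ratio was -0.50. These 20 are 20 of the 33 protein-coding genes at least 2-fold lower. In a bulk library, fewer cells in mitosis and less RNA per mitotic cell cannot be told apart.

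Kinases and regulators of mitotic entry held the most extreme member. Plk1, the polo-like kinase of mitotic entry and cytokinesis, measured 64.6 FPKM in control, 13.0 in HU and 13.2 in HU with nanocages. Aurka, the centrosomal kinase that activates PLK1, measured 70.1, 27.7 and 28.3 FPKM, and Bora, the cofactor of that step, 35.8, 16.5 and 17.1 FPKM. Cdc25b, a phosphatase that activates CDK1, and Ccnb1, cyclin B1, were at 25.8, 11.4 and 11.1 FPKM and at 58.6, 26.5 and 25.3 FPKM. All 5 were thus lower than control in both libraries with HU. In this group 7 of 24 were at least 2-fold lower and 18 below counting error, with a median of -0.57.

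Kinesins and spindle proteins had the lowest median of the mitotic roles, -0.79, with 11 of 29 at least 2-fold lower and 25 below counting error. Prr11, a proline-rich protein needed for cycle progression, measured 23.6, 5.29 and 4.40 FPKM. Aspm, which organises spindle poles, measured 9.14, 2.90 and 3.09 FPKM, and Kif20b, a kinesin of cytokinesis, 17.0, 5.79 and 6.85 FPKM. Prc1, which bundles the central spindle, stood at 21.6, 8.12 and 8.10 FPKM, and Anln, the actin-binding protein of the contractile ring, at 58.7, 26.2 and 26.6 FPKM. Prc1 overlaps Rccd1 on the opposite strand, at 2.13 FPKM in control and 2.39 in HU, and Cdc25b overlaps Spef1 likewise by 334 bases, so their counts may include reads of those neighbours. Not every member was low: Psrc1, a microtubule-associated protein singled out after its values were seen, measured 8.92, 17.2 and 17.4 FPKM and was 1.93-fold higher in HU (1.73 to 2.16).

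The other mitotic roles were lower by less. Of 29 centromere and kinetochore genes, 21 were below and 2 above counting error, with a median of -0.40. Cenpf, a large outer kinetochore protein, had the lowest ratio among them, at 7.03, 1.75 and 2.05 FPKM (4.02-fold, 3.65 to 4.44). Cenpe, the kinetochore kinesin, measured 15.7, 7.68 and 7.96 FPKM. Of 16 genes of the spindle checkpoint and anaphase, 12 were below counting error, with Cdc20, the activator of the anaphase promoting complex, lowest at 111, 54.9 and 54.1 FPKM. Of 15 chromosome structure genes, 11 were below counting error and none was 2-fold lower. Top2a, topoisomerase II, measured 72.3, 49.8 and 52.5 FPKM, and Mki67, the coat protein of mitotic chromosomes, 66.3, 41.6 and 44.1 FPKM.

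Promoter windows of the lowest genes often held the CHR letters. The CHR was searched as TTTGAA or TTCGAA and the CCAAT box as CCAAT, each on both strands, and a CHR and a CCAAT box may share bases. The CHR was present in 19.2% of all windows, in 14.1% of those of the protein-coding genes included here, in 54 of 102 windows of the 100 lowest genes (52.9%, 42.8 to 62.9) and in 19 of 103 windows of the 100 highest (18.4%, 11.5 to 27.3). For the CCAAT box these shares were 37.4%, 37.6%, 67.6% and 43.7%. Both motifs together were in 7.52% of all windows and in 39.2% of those of the 100 lowest genes. Among genes at least 2-fold lower, 17 of 31 windows held both (54.8%, 36.03 to 72.7). An E2F core (TTTCCCGC, TTTGGCGC, TTTCGCGC or TTTGCCGC) was in 2.26% of all windows and in 4.58% of those of the included protein-coding genes. It was in 1.96% of windows of the 100 lowest genes (0.238 to 6.90) and in 2.91% of those of the 100 highest (0.605 to 8.28). Promoter base composition moved with the groups, with median GC contents of 52.7% over all windows, 61.7% over the included genes, 58.7% for the 100 lowest and 63.3% for the 100 highest, and its part in the shares was not tested. The share with a CHR went down with rank from the low end, from 61.7% of windows for the lowest 50 genes to 45.5% for ranks 51 to 100, 26.2% for ranks 101 to 200 and 19.4% for ranks 201 to 400.

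**Figure D4:**
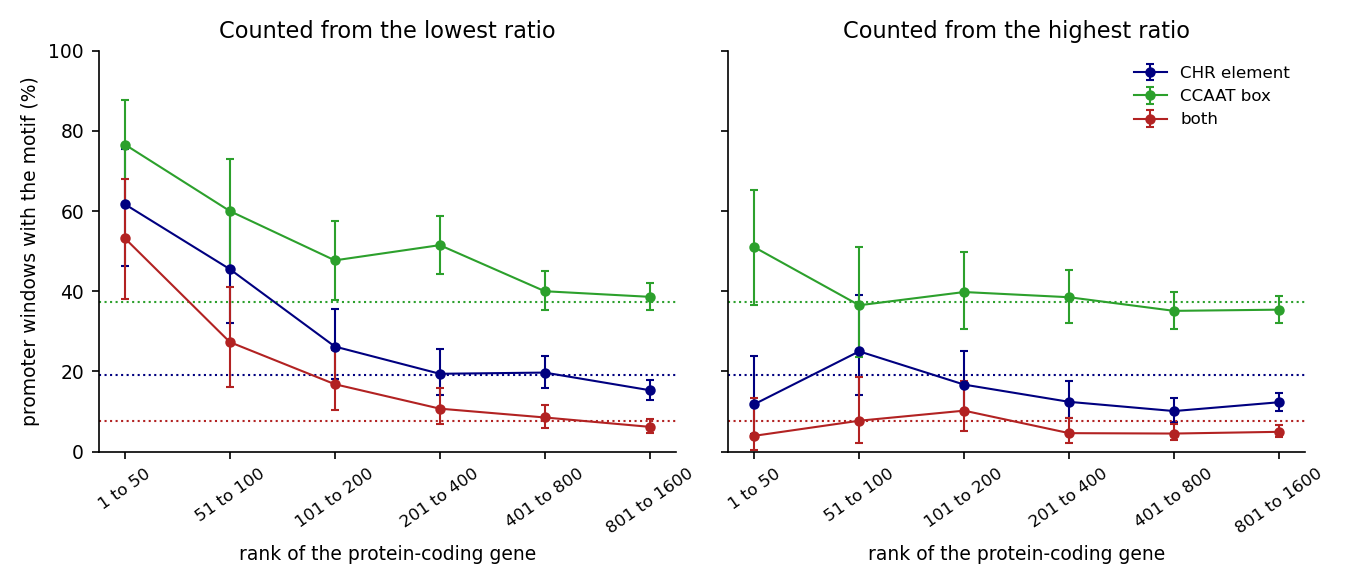
Percent of RefSeq promoter windows holding the CHR (blue), the CCAAT box (green) or both (red) by rank of the protein-coding gene from the lowest ratio (left) and from the highest (right). Bars are exact 95% binomial intervals that treat windows as independent, and dotted lines are the shares over all 32851 windows. The CHR share starts at 61.7% on the left and at 11.8% on the right.

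Of 67 CHR matches in windows of 50 of the lowest 100 genes, at 62 distinct sites since some windows overlap, 47 (70.1%) began between positions -60 and 50, with a median position of -14. Over all windows 28.03% of 7260 matches did, with a median of -125. Stretches from 7 mitotic genes at least 2-fold lower are shown as examples, with the CHR in capitals.
Plk1, chr7:122159453-122159482, plus strand: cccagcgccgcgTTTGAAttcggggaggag
Prr11, chr11:87108694-87108723, minus strand: caaagatttaatTTTGAAattttctttatg
Cenpf, chr1:189688067-189688096, minus strand: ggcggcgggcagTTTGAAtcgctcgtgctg
Aspm, chr1:139454767-139454796, plus strand: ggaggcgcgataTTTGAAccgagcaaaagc
Aurka, chr2:172370521-172370550, minus strand: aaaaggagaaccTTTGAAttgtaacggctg
Prc1, chr7:80294434-80294463, plus strand: cctctggctcggTTTGAAttccgcggggtc
Cdc25b, chr2:131186943-131186972, plus strand: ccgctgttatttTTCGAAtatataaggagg
The 100 bases before the start of Cdc20 show the spacing of both motifs, with 2 CCAAT boxes and 1 CHR in capitals.
Cdc20, chr4:118437344-118437443, minus strand: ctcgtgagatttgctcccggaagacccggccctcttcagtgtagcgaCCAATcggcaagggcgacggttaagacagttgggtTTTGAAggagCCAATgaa
Prr11 and the kinetochore gene Ska2 lie head to head, Prr11 at chr11:87089153-87108708 on the minus strand and Ska2 at chr11:87109234-87124635 on the plus strand. Ska2, chosen after its values were seen, measured 16.9 FPKM in control, 9.61 in HU and 10.2 in HU with nanocages. It was 1.76-fold lower in HU (1.58 to 1.96), beside 4.45-fold for Prr11 (3.98 to 4.99).

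The lowest protein-coding gene was Pif1, a helicase that unwinds G-quadruplexes and removes telomerase, at 19.5 FPKM in control, 2.66 in HU and 3.10 in HU with nanocages. Of 7 linker histone genes listed, only 2 passed the level filter, and both were low as well. H1f0, the replacement linker histone, measured 183, 55.7 and 59.0 FPKM, and Hist1h1c, a cluster linker histone, 14.7, 5.75 and 8.73 FPKM. Hist1h1c was the gene at which the library with nanocages lay farthest above HU among the 33, by 0.53 on the log2 scale. H2afx, the histone variant phosphorylated at DNA breaks, measured 214, 89.2 and 93.1 FPKM. Hist1h2af, a core histone gene, rested on 51, 12 and 8 reads. Outside these groups, Cdkn2d, the CDK4 inhibitor p19, measured 26.4, 9.41 and 10.8 FPKM. Thus the inhibitors Cdkn1a and Cdkn2d lay at opposite ends of the ranking. Arhgef39, a guanine nucleotide exchange factor, measured 15.3, 3.9 and 4.17 FPKM, and Cks2, a subunit of cyclin-dependent kinases, 54.4, 23.9 and 24.7 FPKM. Sapcd2, a spindle orientation factor that belongs to the mitotic list above, measured 9.09, 2.71 and 3.10 FPKM.

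Genes of DNA synthesis, the process that HU blocks, were slightly but broadly higher. Of 49 replication genes, all of which passed the level filter, 35 were above and 3 below counting error, none was 2-fold apart, and the median was 0.19. Rfc3, a clamp loader subunit, measured 13.0, 19.9 and 18.6 FPKM, and Pcna, the sliding clamp, 177, 225 and 220 FPKM. Mcm5, of the replicative helicase, measured 130, 158 and 158 FPKM. Against this direction stood Dbf4, the activator of the origin kinase CDC7, at 13.9, 7.81 and 8.60 FPKM, and Gins3, a helicase cofactor, at 17.3, 13.6 and 13.3 FPKM. Of 24 genes of deoxynucleotide supply, 16 were above and 2 below counting error, with a median of 0.12. Rrm2, the regulated subunit of the enzyme that HU inhibits, measured 113, 142 and 140 FPKM, and the catalytic subunit gene Rrm1 112, 111 and 109 FPKM. The p53-linked subunit gene Rrm2b did not pass the level filter, at 3.32, 3.44 and 3.84 FPKM. The enzyme genes Dctd, Dck and Tyms, which make or salvage deoxynucleotides, were 1.34-, 1.29- and 1.27-fold higher.

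Regulators of the G1 to S transition lay on both sides, with 13 of 23 above and 7 below counting error. Ccne2, cyclin E2, measured 14.1, 31.5 and 33.9 FPKM, and Ccne1, cyclin E1, 21.5, 33.4 and 30.4 FPKM. Rbl2, the pocket protein p130 of the DREAM complex, measured 3.87, 9.63 and 9.58 FPKM. E2f7, a repressor E2F, was 1.68-fold higher (1.52 to 1.86). Ccne2 is the near neighbour of Trp53inp1 on chromosome 4, with starts 34920 bases apart on the plus strand, and no other pair of the protein-coding genes at least 2-fold apart had starts within 100 kb. Among 18 genes of the replication stress checkpoint, 5 were above and 7 below counting error, with a median of -0.03. The 2 at least 2-fold lower were H2afx and Cdc25b, given above, and none was 2-fold higher. Chek2, the kinase CHK2, was 1.49-fold higher (1.30 to 1.72) and Cdc25c, a mitotic phosphatase, 1.90-fold lower (1.65 to 2.20). Of 22 recombination and Fanconi genes 8 were above and 1 below, with Exo1, an end-resecting nuclease, at 6.24, 8.95 and 8.96 FPKM and Ube2t, a ubiquitin conjugase, at 6.70, 4.19 and 3.74 FPKM.

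Of 7 pro-death BCL2 relatives, 5 were above and 2 below counting error, and the 2 at least 2-fold higher, Bbc3 and Pmaip1, are p53 targets. The list also holds Bcl2l11, the BH3-only protein BIM, at 4.27, 6.84 and 6.99 FPKM. Of 12 pro-survival genes 2 were above and 5 below. Pim1, a survival kinase, measured 44.3, 23.9 and 23.1 FPKM, and Cflar, the caspase-8 inhibitor, 10.5, 7.13 and 7.01 FPKM, whereas Bcl2l1, which encodes BCL-XL, measured 18.6, 23.4 and 22.01 FPKM. Dffb, the nuclease that cuts DNA in apoptosis, measured 6.04, 14.3 and 14.4 FPKM, and Apaf1, the core of the apoptosome, 7.42, 11.9 and 12.3 FPKM.

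The integrated stress response was divided: 7 of 26 genes were above and 13 below counting error, and the median was -0.04. Ddit4 and Sesn2, which p53 also drives, were its 2 genes at least 2-fold higher. Chac1, a glutathione-degrading enzyme, was at 33.1, 14.7 and 13.4 FPKM, Ddit3, the factor CHOP, at 14.4, 8.09 and 8.14 FPKM, and Nupr1, a stress-induced nuclear protein, at 18.8, 11.6 and 13.7 FPKM. Of 22 genes of the unfolded protein response and ER chaperones, 2 were above and 11 below counting error, with a median of -0.05. The lowest, Xbp1 and Herpud1, measured 79.9, 50.5 and 50.8 FPKM and 91.0, 58.9 and 60.7 FPKM. In the autophagy list 20 of 32 genes were within counting error, with 3 above and 9 below. Ulk1, the initiating kinase, was its lone gene at least 2-fold higher, at 3.89, 12.3 and 12.7 FPKM. Ulk1 passed the level filter only through the HU library. Map1lc3b, the membrane marker LC3B, measured 6.35, 5.67 and 5.68 FPKM, and Sqstm1, the cargo receptor p62, 150, 155 and 165 FPKM. Of 35 lysosomal genes 16 were below and 3 above counting error, led by Gla, an alpha-galactosidase, at 7.66, 5.07 and 4.25 FPKM.

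Genes of the immediate early list were mostly higher, with 13 of 22 above and 5 below counting error and a median of 0.21. The 2 at least 2-fold higher were Jun and Btg2, the adaptor gene already counted among p53 targets. Jun, of the AP-1 factor, measured 22.1 FPKM in control, 62.9 in HU and 57.8 in HU with nanocages. Nr4a1, an orphan nuclear receptor, measured 4.99, 10.8 and 10.1 FPKM, and Fosl1, a partner of JUN, 30.6, 52.95 and 56.8 FPKM. Feedback on MAP kinases was split between Dusp1, a phosphatase at 5.66, 11.1 and 11.2 FPKM, and Dusp6, a phosphatase of ERK at 9.11, 4.73 and 5.89 FPKM. Among 15 genes of the Notch, BMP and Wnt list, 9 were above and 2 below counting error, with a median of 0.12. Its 3 genes at least 2-fold higher were the inhibitors of differentiation Id2 and Id1 and the inhibitory SMAD gene Smad6. Id2 measured 3.83, 17.1 and 17.5 FPKM, Id1 2.93, 10.3 and 8.60 FPKM and Smad6 1.1, 5.49 and 4.70 FPKM. These 3 rested on 51 to 73 control reads and passed the level filter only through the HU library.

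Macrophage identity was little altered, with 18 surface and effector genes at a median of -0.07, 3 above and 8 below counting error, and none 2-fold apart. Adgre1, the antigen F4/80, measured 5.24, 3.70 and 4.02 FPKM, and Trem2, a lipid-sensing receptor, 15.1, 17.2 and 17.6 FPKM. Of the lineage transcription factors, Cebpa, a driver of myeloid differentiation, measured 2.48, 6.53 and 6.98 FPKM, and Irf8, a factor of monocyte fate, 15.8, 8.71 and 9.22 FPKM, so that they lay on opposite sides of control. Cebpa passed the level filter only through the HU library.

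Inflammatory ligands and interferon-stimulated genes leaned low. Of 13 chemokines and cytokines, 8 were below and 1 above counting error, with a median of -0.30. Tnf measured 464, 284 and 282 FPKM, and the chemokines Ccl4 and Ccl3 436, 269 and 265 FPKM and 1127, 839 and 865 FPKM. The exception was Vegfa, the angiogenic growth factor, at 12.2, 18.1 and 16.7 FPKM. Of 11 interferon-stimulated genes that passed the level filter, out of 44 listed, 8 were below and none above counting error, again with a median of -0.30. Irf9, the DNA-binding subunit of the interferon-activated complex ISGF3, measured 8.01, 4.12 and 4.40 FPKM, and Oas1g, an oligoadenylate synthetase, 13.9, 9.42 and 8.73 FPKM. Tmem173, the sensor adaptor STING, measured 11.7, 8.21 and 8.04 FPKM. Tap1, the transporter that loads peptides for class I molecules and also a p53 target, measured 3.79, 11.1 and 10.9 FPKM. It passed the level filter only through the HU library. It was the 1 gene above counting error of 10 in class I presentation, where 7 were within it and 2 below, the lowest being H2-M3 at 9.14, 6.97 and 5.56 FPKM. Ptgs2, the inducible cyclooxygenase, measured 12.0, 39.8 and 42.1 FPKM, while the other 5 genes of lipid mediator synthesis lay within 1.15-fold.

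Metabolic and housekeeping lists differed by small ratios. Of 23 cholesterol synthesis genes 11 were below and none above counting error, with a median log2 ratio of -0.14. Of 23 antioxidant genes under NRF2, 13 were above and 5 below, led by Srxn1, sulfiredoxin, at 24.7, 42.8 and 47.5 FPKM. Hmox1, heme oxygenase 1, measured 65.0, 96.8 and 127 FPKM, and Slc30a1, a zinc exporter, 2.65, 5.61 and 7.88 FPKM, so for both the library with nanocages was highest. Of 22 splicing factors 11 were above and 2 below, none beyond 1.22-fold, as for Tra2a at 62.0, 75.7 and 76.6 FPKM. Of 24 genes of ribosome biogenesis 13 were above and 3 below, led by Rrn3, an initiation factor of RNA polymerase I, at 31.5, 41.7 and 43.5 FPKM. Most proteasome subunits, 22 of 31, were within counting error, and the ratio of each of them lay between -0.16 and 0.18 on the log2 scale.

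Genes of other biotypes gave few firm differences. Of the 537, 8 (1.49%) lay 2-fold or more above control and 13 (2.42%) below, and 61 (11.4%) and 70 (13%) were above and below counting error. RP24-309H3.5, a long intergenic RNA, had 16 reads in control, 236 in HU and 235 in HU with nanocages, an 11.02-fold difference between HU and control (6.65 to 19.6). It overlaps 9230114K14Rik on the opposite strand, which had 32 and 233 reads, and without a known strand setting their reads cannot be told apart. Rps26-ps1, a ribosomal pseudogene, had 59, 218 and 42 reads, so it was high in HU alone, and it lies inside Wwp2, whose level was steady at 28.3 and 27.5 FPKM. Small RNA genes at either end rested on few reads inside host genes, such as Mir3074-1 with 3 and 13 reads and Mir6973a with 12 and 3 reads inside Ltb.

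The third library, which shares HU, was close to the HU library at the extremes. Set against HU, the 78 higher genes ran from -0.23 for Id1 to 0.32 for Fas on the log2 scale, with a median of 0.01, and 32 of the 33 lower genes lay within 1.25-fold, again with 1 FPKM added. Without it, Fas at 7.97 and 10.2 FPKM and Trim59, a ubiquitin ligase, at 4.52 and 5.81 FPKM differed more. The 86 genes at least 2-fold higher together took 2360 CPM, counts scaled to a common library sum, in control, 8716 in HU and 8741 in HU with nanocages. The 46 lower genes took 3742, 1424 and 1482 CPM.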

How the data were processed

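RNA of control, HU and HU plus gold nanocage cultures was sequenced as 1 library each, 1 µg of RNA being used at an RNA integrity above 7. The authors deposited whole-number read counts per gene, not normalized. The deposited FPKM values equal, for 100% of genes within 0.0051, the count divided by exonic length and by the library's summed count. That deposited exonic length, in bases, is the other value used. HTSeq 0.6.1, HISAT2 2.0.1, SAMtools 0.1.18, bcl2fastq 2.17.1.14, DESeq and cutadapt, with mm10, are named in the submitters' processing notes. What each did, and the annotation and strand setting, is not given in the sources used here.

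Here the log2 ratio of FPKM with a pseudocount of 1 was computed, and folds with exact (Clopper-Pearson) 95% intervals from counts scaled by their sums (SciPy 1.17.1). The reads carry no molecular identifiers, so intervals cover counting error only. For 0 reads the limit is 3 counts, which is 0.200, 0.150 and 0.161 CPM in the 3 libraries (CPM, counts scaled to a common library sum, was computed here). Biotypes and coordinates came from GENCODE M21, which holds 98.0% of the gene identifiers. Of 7363 protein-coding genes, without predicted genes, 6044 (82.1%) matched a RefSeq promoter window by symbol or synonym. Positions were not compared, so a synonym can bring in the window of another gene, and the 6044 fell on 6030 RefSeq genes. The window matched to Tpx2, at rank 39 from the lowest, lies at chr17:50293571-50293870 and holds a CCAAT box. It was counted without a check against the position of that gene.

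The genes included and the 44 gene lists were chosen with earlier results of these data known. Genes were named by rule: the 30 highest and 30 lowest protein-coding genes and the 5 highest and 5 lowest of other biotypes, without predicted genes and antigen receptor segments, up to 5 genes per list role with the largest absolute ratio, and Rrm1, Rrm2, Rrm2b, Cdkn1a, Mdm2, Trp53, Plk1, Map1lc3b, Sqstm1, Becn1, Ulk1, Bcl2 and Bax. Kif22 counts under both mitotic roles that list it. Alternatives were other pseudocounts, level filters, intervals and motif settings, and scaling with edgeR 4.0.16 or DESeq2 1.42.0 in R 4.3.3, used here for scaling factors only. The calculations were tested on simulated data. A search for p53 sites beyond the promoter windows was not run.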

Additional observations from a re-analysis of the deposited data

How the results depend on the processing

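With a pseudocount of 5 FPKM, the 2-fold counts were 41 higher and 23 lower, p53 targets at least 2-fold higher numbered 21 and mitotic genes at least 2-fold lower 10. With a limit of 1 FPKM in place of 5 the counts were 168 and 111. With no filter on low values they had to be the same, 168 and 111 of 18681 genes. A gene under 1 FPKM in both libraries cannot reach 2-fold once 1 FPKM is added to each value. The share of windows with a CCAAT box was 76.6% for the 50 lowest genes. The remaining 37 alternative values of counts and shares stayed within 1.5 times or within the counting interval, such as 86 and 45 genes 2-fold apart with TMM scaling and 1266 and 1385 beyond a 99% interval. TMM and DESeq2 factors moved all ratios by 0.004 and 0.0001 on the log2 scale. Of 2238 alternative ratios of named genes, 129 moved beyond the counting interval, all under another pseudocount. With 5 FPKM added 104 moved and 180 did not, and with 0.1 FPKM added 25 moved and 259 did not. Level filters and the limit to protein-coding genes leave a gene's own ratio as it is, so those settings could not move it. Of 343 alternative list medians, 14 moved by 0.1 or more. Of these, 6 moved with no filter, 4 with a limit of 1 FPKM and 1 with a mean of at least 5 FPKM. The other 3 moved with a pseudocount of 5 FPKM. No paired analysis was possible because each group is 1 library and the labels carry no replicate numbers. Depth limits low genes: at 5 FPKM a short gene has few reads, as with Hist1h2af at 51 and 12.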

Other observations

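The ratio of HU to control differed with gene span. Protein-coding genes under 5 kb had a median log2 ratio of 0.03, with 204 above and 122 below counting error of 812, and genes spanning over 150 kb had one of -0.07, with 27 above and 103 below of 290. Genes of 5 to 15, 15 to 50 and 50 to 150 kb lay between, at 0.01, -0.01 and -0.03. No X-linked gene of 210 was at least 2-fold apart, beside 1.06% higher and 0.447% lower over all protein-coding genes.

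In CPM the largest differences were not all large ratios. Cdkn1a was higher in HU by 775 and Mdm2 by 739, and the mitochondrial gene mt-Cytb, chosen after its values were seen like the next 3 genes, by 669 at a ratio of only 1.17. Hspa8, a cytosolic chaperone, was higher by 440. On the low side, Cited2, a coactivator-binding protein, measured 1303 CPM in control and 966 in HU, and Gas7, an actin-associated protein, 920 and 714 CPM. The 11 mitochondrial protein-coding genes had a median log2 ratio of 0.10, with 8 above counting error, and mitochondrial reads made up 3.07%, 3.26% and 3.38% of the control, HU and HU plus nanocage counts.

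The 4 immunoglobulin heavy chain joining segments included, looked at after their values were seen, were all at least 2-fold lower in HU. Ighj1 had 56, 28 and 36 reads in the control, HU and HU plus nanocage libraries, Ighj2 had 53, 24 and 32, Ighj3 32, 16 and 21, and Ighj4 53, 32 and 19. The constant region gene Ighm measured 138.8, 94.9 and 97.0 FPKM. Of 6 B cell markers, 3 had no reads and none reached 1 FPKM in any library.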
